A study of Mus musculus with 2 samples.

Results

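The replication-dependent histone genes are the *Hist1h*, *Hist2h*, *Hist3h* and *Hist4h* genes, which carry the plans for the bulk of the histones that a dividing cell lays onto newly copied DNA. They were taken from the gene tables by symbol, leaving out symbols that end in -ps, which gave 69 genes of the 54146 listed: 6 of the H1 class, 20 of H2A, 18 of H2B, 12 of H3 and 13 of H4. Of these, 67 are annotated as protein coding and 2 as pseudogenes (*Hist1h2aj* and *Hist1h2al*). The data are 1 inDrop single-cell RNA-seq library of wild-type mouse ES cells, labelled untreated, and 1 library of *Lin28a* knockout ES cells. Both are ICM-derived and were cultured for 2 days in LIF/2i media on gelatin, with feeders (MEFs, mouse embryonic fibroblasts) present. Per the methods, each line is 1 clone, and the knockout was made by CRISPR/Cas9. The paper's supplement describes the wild-type clone as transfected too. Neither genotype has a replicate, differences were therefore not tested, and genotype, clone and culture cannot be told apart.

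DNA in the nucleus is wound around an octamer of histones H2A, H2B, H3 and H4, and the linker histone H1 binds where the DNA enters and leaves it. The genes for these proteins lie in clusters, are transcribed mainly in S phase, and are unusual in that their mRNAs normally end not in a poly(A) tail but in a short stem-loop, to which the stem-loop binding protein SLBP attaches. The replication-independent histones, such as H3.3 and H2A.Z, are made throughout the cell cycle from ordinary polyadenylated mRNAs. In inDrop the transcripts are captured by an oligo(dT) primer, so a histone mRNA is counted where its RNA holds a stretch of A, and the level of a gene here is a level of captured RNA.

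The stem-loop was searched for by its invariant letters (a GG, then CTT, T and AG, then a CC, at fixed spacing with any base between) on the transcribed strand in the 200 bases after the stop codon of each annotated transcript. It was found in 46 of the 69 genes, starting 21 to 58 bases after the stop codon with a median of 31, and in 55 of 21762 protein-coding genes of the annotation (0.253%), 46 of which are the same histone genes. In the other 23 genes these letters were not found. Among them *Hist1h2aj* and *Hist1h2al* have no annotated stop codon and were not searched. Most of the rest end at or within a few bases of the stop codon, so the annotation could not show a stem-loop there. To show what the most abundant genes and a gene of each other class carry there, the 14 bases before the stem-loop are given in lower case and the stem-loop in capitals, 5′ to 3′.

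Hist1h2ap: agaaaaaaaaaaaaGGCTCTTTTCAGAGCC
Hist1h2ad: tgtataaaaacaaaGGCTCTTTTCAGAGCC
Hist1h2ab: ttaaccaaaacaaaGGCTCTTTTCAGAGCC
Hist1h2ae: gtaaaaaaaacaaaGGCTCTTTTCAGAGCC
Hist1h1e: cccaacaacccaaaGGCTCTTTTCAGAGCC
Hist1h3c: gctatttaaaaaaaGGCTCTTTTAAGAGCC
Hist1h2bj: acaccaaatccaaaGGCTCTTTTCAGAGCC
Hist1h4d: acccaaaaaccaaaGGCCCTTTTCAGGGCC

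These windows lie in the 3′ UTRs at chr13:21833029-21833058 on the minus strand for *Hist1h2ap*, chr13:23574881-23574910 on the plus strand for *Hist1h2ad*, chr13:23751558-23751587 on the plus strand for *Hist1h2ab* and chr13:23570668-23570697 on the minus strand for *Hist1h2ae*. Those of *Hist1h1e* and *Hist1h3c* lie at chr13:23621782-23621811 and chr13:23745047-23745076 on the minus strand, and those of *Hist1h2bj* and *Hist1h4d* at chr13:22043624-22043653 and chr13:23581936-23581965 on the plus strand, all in GRCm38. The 16 letters of the stem-loop were the same in 26 genes (3 H1, 10 H2A, 8 H2B and 5 H3), while the H4 genes had other versions, of which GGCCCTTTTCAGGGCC stood in 7. Other versions were not confined to H4. That of *Hist1h3c* stood in 6 genes (1 H1, 2 H2B and 3 H3), and 1 H3 and 1 H2A gene each had a version of their own. *Hist1h2ap* and *Hist1h2ao* hold a run of 12 A directly before the stem-loop and *Hist1h3c* a run of 7. In *Hist1h2ae* the longest run in these bases is 8 A and does not reach the stem-loop, and in *Hist1h2ad* and *Hist1h2ab* the longest runs there are 5 and 4. Long runs do not mark every abundant gene. *Hist1h2ac* (6645 UMIs over both libraries) and *Hist1h2ag* (6497) have a longest run of 3 there, as do *Hist1h1e* (579) and *Hist1h2bj* (82). Elsewhere in its annotated transcript, however, *Hist1h2ac* holds a run of 15 A, while the longest in that of *Hist1h2ag* is 4.

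The 69 genes had 93808 UMIs in 1856 wild-type cells and 94379 UMIs in 1622 knockout cells, and the H2A genes made up 94.5% of them in wild-type ES cells and 98.1% in knockout ES cells. Levels are UMIs scaled to a common library total (CPM), and each interval is a 95% interval for counting error only. CPM were not divided by gene length. Since a histone mRNA is counted where its RNA holds a stretch of A, CPM of different genes or classes compare captured RNA. They need not rank the mRNAs themselves. All histone genes together stood at 8060 CPM (8008 to 8111) in wild-type ES cells and 10104 CPM (10040 to 10169) in knockout ES cells, a knockout to wild-type ratio of 1.25 (1.24 to 1.27). This higher total came from H2A, at 7618 CPM in wild-type ES cells and 9908 CPM in knockout ES cells, a ratio of 1.30 (1.29 to 1.31). The 49 genes of the other classes together stood at 442 CPM (429.9 to 454) and 196 CPM (187 to 205), a ratio of 0.443 (0.420 to 0.467).

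The libraries held 11639256 and 9340855 UMIs in cells with at least 500 UMIs and at most 20% mitochondrial UMIs, with medians of 6140 and 5064 UMIs per cell. *Lin28a* had 1242 UMIs (107 CPM) in wild-type ES cells and 342 UMIs (36.6 CPM) in knockout ES cells, and since its 3′ end lies outside the edited exon this does not check the edit. Of 10 ES markers 10 were detected in both libraries, with *Dppa5a* (ratio 1.17), *Pou5f1* (1.21) and *Zfp42* (0.787) the most abundant. The sum of the 10 had a ratio of 1.03, but the single markers were not all level. By 1.5-fold 0 were higher and 1 lower (10%, against 9.56% of all genes), *Sox2*, with 1850 wild-type and 863 knockout UMIs (0.581). Of 12 feeder fibroblast markers, *Fn1* and *Sparc* were found in 82.3% and 70.9% of wild-type cells, so they do not mark feeders here. The sum of the other 10, led by *Col1a1* and each found in at most 12.1% of wild-type cells, was 841 CPM in wild-type ES cells and 293 CPM in knockout ES cells, a ratio of 0.349 (0.334 to 0.364), against 1818 and 1034 CPM (0.569) for all 12. Of the 11 with enough UMIs 9 were at least 1.5-fold lower and none of the 12 was at 0. Cells with at least 0.5% of their UMIs on *Col1a1*, *Col1a2* and *Col3a1*, called collagen-rich here, were 41 wild-type and 21 knockout cells. Cell columns are running numbers, so barcodes shared between the libraries could not be counted.

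For each gene with at least 50 UMIs over both libraries a ratio of at least 1.5 in either direction was counted. Of the 41 histone genes that passed this minimum, 1 was higher in knockout ES cells, where 10.5% of all 15453 genes with as many UMIs were, and 19 were lower, where 9.56% of all genes were. Their median log2 ratio was −0.54, against 0.05 for all genes. That median joins classes of unlike direction, with medians of 0.33 for H2A, −1.395 for H1, −1.34 for H3, −0.31 for H2B and −0.70 for H4. The other 28 histone genes had 2 to 49 UMIs over both libraries and 1 of them, *Hist1h1t*, a testis H1, had 2 UMIs in wild-type ES cells and 0 in knockout ES cells, which allows up to 0.321 CPM there.

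**Figure D1:**
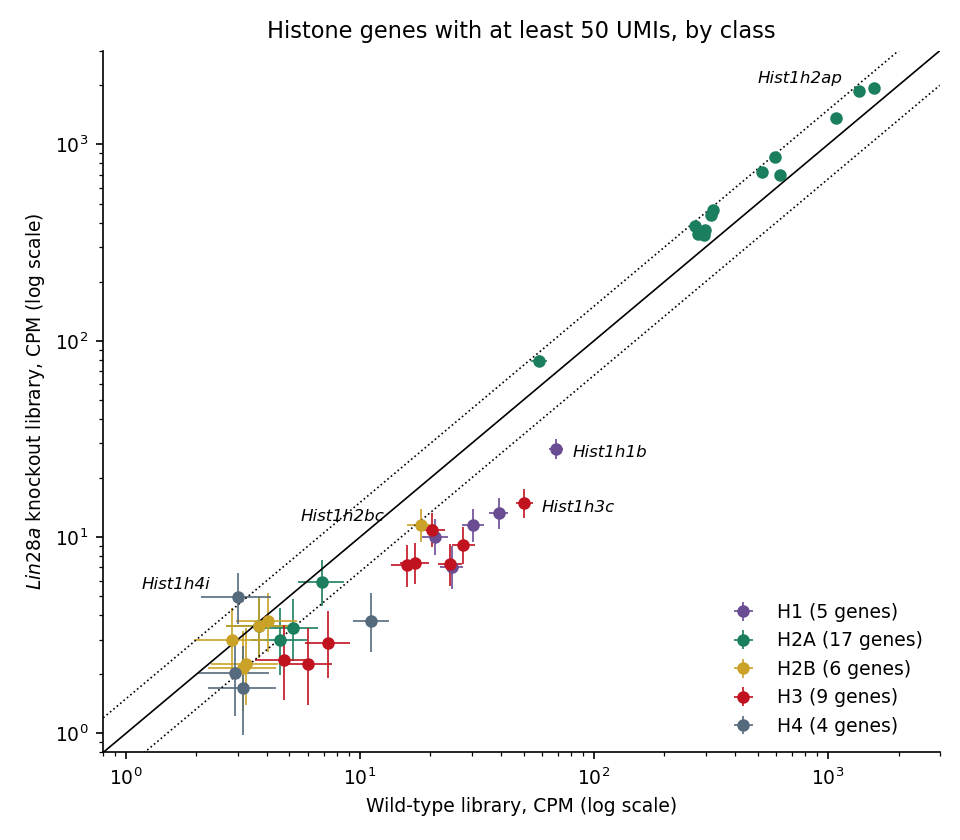
Each point is a histone gene with at least 50 UMIs over both libraries, with its CPM in the wild-type library on the horizontal and in the *Lin28a* knockout library on the vertical axis (both log scales). Bars are 95% Poisson intervals, the solid line marks equal levels and the dotted lines a 1.5-fold difference. The abundant H2A genes lie above the line of equal levels and the H1 and H3 genes below the lower dotted line.

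H2A, which pairs with H2B on the outer faces of the octamer, was represented by 12 abundant *Hist1h2a* genes with 87700 wild-type and 91629 knockout UMIs, and their ratios lay between 1.12 and 1.46. None of the 12 reached 1.5-fold. *Hist1h2ap* (ENSMUSG00000094777.2, chr13:21833026-21833507, minus strand) was the most abundant, with 18326 UMIs in wild-type ES cells and 18199 in knockout ES cells. That is 1574 CPM (1552 to 1597) and 1948 CPM (1920 to 1977), a ratio of 1.24 (1.21 to 1.26). *Hist1h2ad* (chr13:23574381-23574952) stood at 1358 CPM in wild-type ES cells and 1866 CPM in knockout ES cells, a ratio of 1.38 (1.35 to 1.41). *Hist1h2ab* (chr13:23751126-23751598) stood at 1079 and 1358 CPM in the same order, a ratio of 1.26 (1.23 to 1.29). The steepest of the 12 was *Hist1h2af*, at 594 CPM in wild-type ES cells and 867 CPM in knockout ES cells (ratio 1.46, 1.41 to 1.51) and the first gene short of the limit for higher, and the flattest was *Hist1h2ae*, at 625 and 699.8 CPM (1.12, 1.08 to 1.16). *Hist1h2ah* (524 and 725 CPM), *Hist1h2an* (322.5 and 464 CPM) and *Hist1h2ai* (317 and 436 CPM) had ratios of 1.38, 1.44 and 1.38. *Hist1h2ao* (299 and 366 CPM), *Hist1h2ac* (295 and 344 CPM) and *Hist1h2ag* (277 and 350.5 CPM) had ratios of 1.23, 1.16 and 1.27. *Hist1h2aj*, typed as an unprocessed pseudogene, had 3139 wild-type and 3595 knockout UMIs, or 269.7 and 385 CPM, a ratio of 1.43. *Hist1h2ak* followed at 58.2 and 79.0 CPM.

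These genes are near copies of each other, so a read can fall on more than 1 of them and the value of a single *Hist1h2a* gene is uncertain. Over the 10 of the 12 with a coding sequence of 393 bases, identity between pairs ran from 97.2% to 100%, with a median of 98.5%, and *Hist1h2ap* and *Hist1h2ao* were the same throughout. The files count 1.57% (wild-type) and 1.55% (knockout) of the UMIs of H2A genes as ambiguous, which is a lower share than for H3 (15.5% and 20.9%) and H4 (16.7% and 18.0%). Over single cells with at least 2000 UMIs the levels of the 12 genes went up and down together. The 66 pairwise correlations ran from 0.65 to 0.93 over 1642 wild-type cells and from 0.74 to 0.96 over 1110 knockout cells, and each pair shares cells, depth and nearly the same sequence.

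The H2A genes of the smaller cluster on chromosome 3 did not have the same direction. *Hist2h2aa1* had 60 wild-type and 32 knockout UMIs (ratio 0.665, 0.419 to 1.04) and *Hist2h2aa2* 53 and 28 UMIs (0.658, 0.401 to 1.06), both counted as lower with intervals that reach past 1, and neither was counted as lower without collagen-rich cells. The 10 histone genes of chromosome 3 together, chr3:96219865-96270132, had 225 wild-type and 115 knockout UMIs, or 19.3 and 12.3 CPM, a ratio of 0.637 (0.504 to 0.801). On chromosome 13 55 of the 56 genes lie in chr13:21715763-23934851 and the other, *Hist1h2al*, apart from them.

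Linker histone H1, which compacts the nucleosome fibre, stood at 184 CPM (176 to 192) in wild-type ES cells and 70.1 CPM (64.8 to 75.7) in knockout ES cells, a ratio of 0.381 (0.348 to 0.416). All 5 of the H1 genes with enough UMIs were at least 1.5-fold lower. *Hist1h1b* had 802 UMIs in wild-type ES cells and 263 in knockout ES cells, 68.9 CPM (64.2 to 73.8) against 28.2 CPM (24.9 to 31.8), a ratio of 0.409 (0.354 to 0.470). *Hist1h1e* had 455 and 124 UMIs (0.340, 0.276 to 0.415) and *Hist1h1c* 354 and 108 UMIs (0.380, 0.304 to 0.473). The lowest ratio of the 41 genes was that of *Hist1h1a*, with 287 wild-type and 66 knockout UMIs (0.287, 0.216 to 0.376). *Hist1h1a* UMIs were seen in 13.3% of the wild-type but 3.82% of the knockout cells. These shares were not taken at a fixed depth, and knockout cells had the lower median of UMIs.

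Histone H3, which forms the core tetramer with H4, stood at 177 CPM (169 to 185) in wild-type ES cells and 65.9 CPM (60.8 to 71.4) in knockout ES cells, a ratio of 0.373 (0.340 to 0.408), and all 9 of its genes with enough UMIs were at least 1.5-fold lower. *Hist1h3c* had 587 UMIs in wild-type ES cells and 139 in knockout ES cells, 50.4 CPM (46.4 to 54.7) against 14.9 CPM (12.5 to 17.6), a ratio of 0.295 (0.244 to 0.356). *Hist1h3b* had 322 and 85 UMIs (0.329, 0.256 to 0.419) and *Hist1h3i* 282 and 68 UMIs (24.2 and 7.28 CPM). The smallest difference among these 9 was that of *Hist1h3d*, with 236 and 102 UMIs (0.539).

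H2B and H4 had the lowest CPM of the classes. H2B stood at 48.7 CPM (44.8 to 52.9) in wild-type ES cells and 36.9 CPM (33.1 to 41.0) in knockout ES cells, a ratio of 0.758 (0.661 to 0.868). Of its 6 genes with enough UMIs 1 was lower, *Hist1h2bc*, with 212 wild-type and 108 knockout UMIs (0.635, 0.499 to 0.804), and its direction turned without the 41 and 21 collagen-rich cells (1.45, 1.04 to 2.02). *Hist1h2bj*, the next by UMIs, had 47 and 35 (0.928, 0.581 to 1.47). H4 stood at 32.1 CPM (29.0 to 35.6) and 22.8 CPM (19.8 to 26.1), a ratio of 0.710 (0.597 to 0.842), with 2 of 4 genes lower. *Hist1h4d* had 130 wild-type and 35 knockout UMIs (0.336, 0.224 to 0.490). *Hist1h4i*, the only histone gene counted as higher, had 35 and 46 UMIs (1.64, 1.03 to 2.62), and was no longer counted without cells of 10000 or more UMIs (1.40, 0.762 to 2.53). The last gene inside the limit for lower was *Hist2h2aa1* at 0.665 and the first outside it *Hist1h2bp* at 0.673, with 37 and 20 UMIs.

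**Figure D2:**
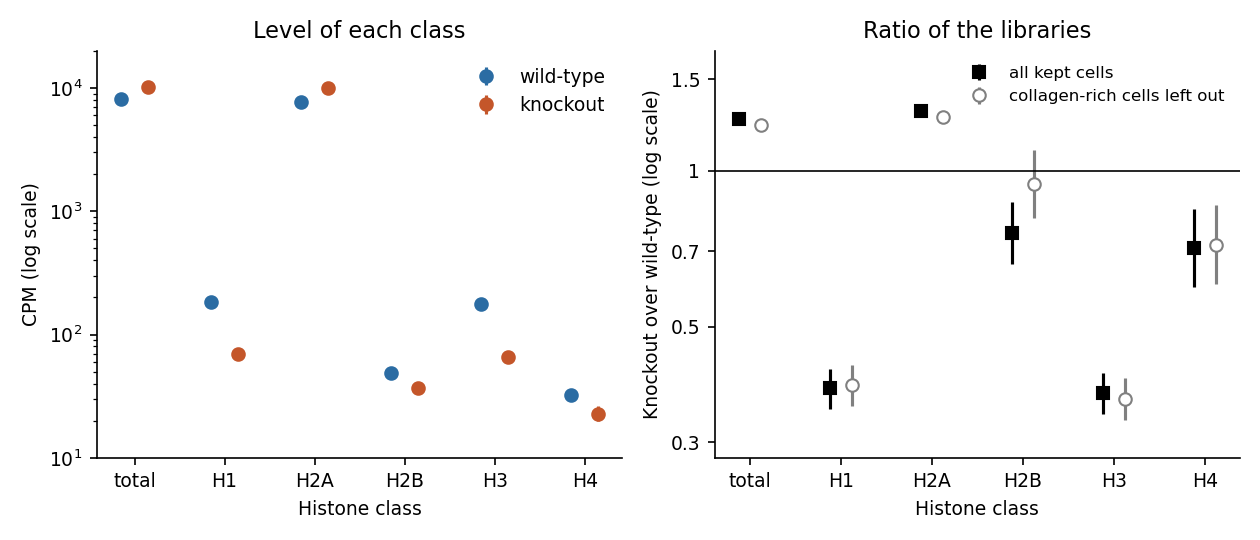
Left, the summed level of the 69 histone genes and of each class in CPM (log scale) with 95% Poisson intervals, in wild-type ES cells and the knockout library. Right, the ratio of knockout over wild-type (log scale) with its 95% interval in all kept cells (squares) and without collagen-rich cells (circles). H2A is above 1, H1 and H3 are below 0.5, and H2B moves from 0.758 to 0.942 once collagen-rich cells are left out.

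The difference in level between H2A and H2B held for genes that lie side by side. In 13 pairs an H2A and an H2B gene start within 500 bases of each other on opposite strands, 176 to 306 bases apart, and the H2A gene had more UMIs in 13 of them, by 1.5 to 1122 times with a median of 218. *Hist1h2ad* had 33235 UMIs over both libraries and its neighbour *Hist1h2bf*, 185 bases away, had 48. *Hist1h2ac* had 6645 UMIs and its neighbour *Hist1h2bc* 320. Genes so close together have their promoters in the same stretch of DNA. These counts are of captured RNA, and the part of capture in the difference was not tested. Most of these H2A genes are near copies of each other, so the 13 pairs are not separate cases.

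Where the annotated transcript ends bears on which part of an mRNA a 3′ primer can meet. In 23 of the 46 genes with the stem-loop the annotation ends within 100 bases after it, and in the other 23 it runs on further, with an AATAAA polyadenylation signal beyond the stem-loop in 14. The first group had a median of 77 UMIs per gene (6 to 36525), the second a median of 53 (2 to 13815), and the 23 genes in which the pattern was not found a median of 76 (6 to 15016). Most of these last genes have little or no annotated sequence to search, so they are not a group without a stem-loop. The medians were close, but the 3 most abundant genes were all in the first group, which held 58.7% of the histone UMIs, against 12.3% in the second and 29.0% in the genes in which it was not found. These groups mix classes of unlike level. Among the H2A genes alone the medians were 6698, 6645 and 6734 UMIs per gene in the same order, over 8, 3 and 9 genes. *Hist1h2ap*, with 3 annotated bases after its stem-loop, was the most abundant gene. *Hist1h2ac*, whose annotation runs 2010 bases further and holds 3 AATAAA, had 6645 UMIs.

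Histone levels varied widely between single cells. In cells with at least 2000 UMIs the H2A level per cell ran from 0 to 58968 CPM in the wild-type library, with a median of 5986, and from 0 to 77388 CPM in knockout ES cells, with a median of 7890. The middle 80% of cells lay between 171 and 18886 CPM in wild-type ES cells and between 277 and 25788 CPM in knockout ES cells, so the cells of both libraries overlapped over most of their range. No H2A UMI was found in 9.20% of these wild-type and 7.12% of these knockout cells. The other classes together had a median of 248 CPM in wild-type and 82.5 CPM in knockout cells, and 28.5% and 46.2% of cells had no UMI of them. At least 1 histone UMI was found in 88.7% (87.2 to 90.1, exact binomial interval) of all kept wild-type and 86.1% (84.3 to 87.7) of knockout cells, and in 72.1% and 72.9% when each cell was taken at 500 UMIs. For the classes other than H2A the shares at 500 UMIs were 17.3% and 7.89%. Collagen-rich cells, with median depths of 9273 and 2295 UMIs, had a histone UMI in 39.4% and 28.7% of cells at 500 UMIs and an H2A UMI in 13.9% and 19.1%, against 70.9% and 72.3% of the other cells.

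**Figure D3:**
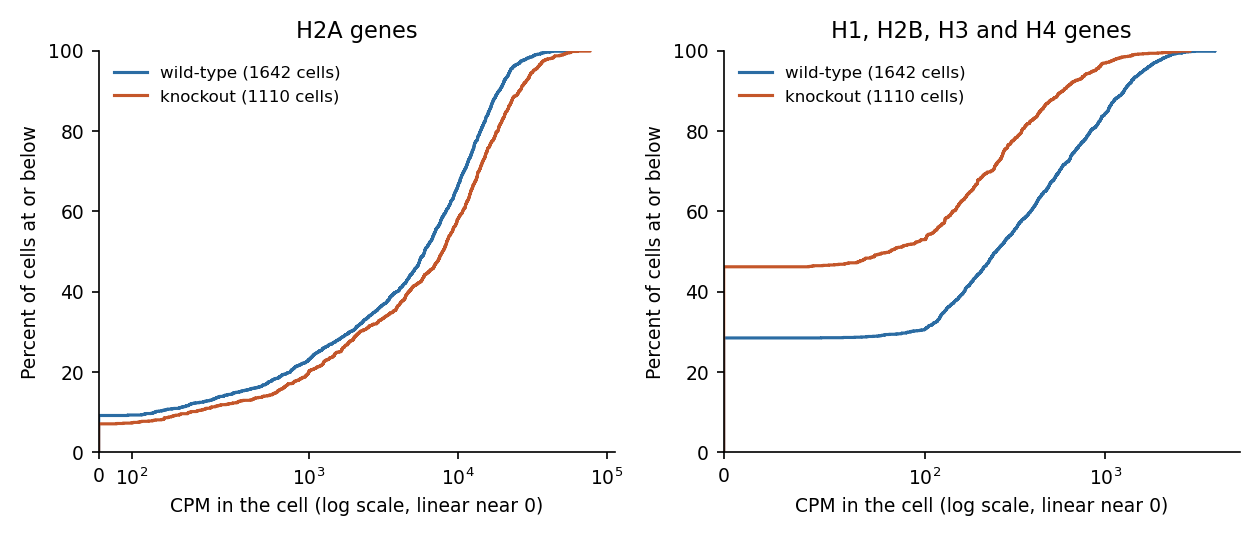
Cumulative percent of cells (vertical) at or below a given CPM (horizontal, log scale that is linear near 0) for H2A genes, left, and for H1, H2B, H3 and H4 genes, right, in cells with at least 2000 UMIs. The knockout curve lies to the right for H2A (medians 7890 against 5986 CPM) and to the left for the other classes (82.5 against 248 CPM).

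*Hist1h2bc* and *Hist1h1c* were high in collagen-rich cells, where H2A was low. In the 41 collagen-rich wild-type cells H2A stood at 346.5 CPM against 7881 CPM in the other cells, and *Hist1h2ap* had 23 UMIs. In knockout cells H2A stood at 2484 CPM in the 21 collagen-rich cells (270 UMIs) against 9995 CPM in the others, but 1 cell held 224 of the 270 UMIs, and the other 20 stood at 535 CPM (392 to 714). In the collagen-rich wild-type cells *Hist1h2bc* stood at 351 CPM (296 to 414) against 6.14 CPM (4.78 to 7.77), with 143 of its 212 wild-type UMIs in them. *Hist1h1c* stood at 349 CPM (294 to 411) against 18.9 CPM (16.4 to 21.6), with 142 of its 354 UMIs in them. In the 21 collagen-rich knockout cells *Hist1h2bc* stood at 239 CPM (156 to 350.5) against 8.88 CPM and *Hist1h1c* at 166 CPM (98.1 to 262) against 9.75 CPM. *Hist2h2aa1*, at 31.9 against 4.18 CPM, and *Hist2h2aa2*, at 27.0 against 3.74 CPM, were also higher in the collagen-rich wild-type cells. Without collagen-rich cells the ratio of *Hist1h2bc* turned from 0.635 to 1.45 (1.04 to 2.02) and that of H2B went from 0.758 to 0.942 (0.810 to 1.09), and that of *Hist1h1c* from 0.380 to 0.517 (0.399 to 0.664), while the sums of H1 and H3 had 0.386 and 0.364. *Hist2h2aa1* (0.751) and *Hist2h2aa2* (0.782) were then no longer counted as lower, *Hist1h2bp* (0.658) was, and the number of histone genes counted as lower went from 19 to 17.

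Next, histone levels were set against *Pcna*, the sliding clamp of DNA replication, and *Ccnb1*, cyclin B1, which drives entry into mitosis. *Pcna* stood at 545 CPM in wild-type ES cells and 349 CPM in knockout ES cells (ratio 0.640), and *Ccnb1* at 184 and 186 CPM (1.01). Cells with at least 2000 UMIs were thinned to 2000 UMIs each, which left out 214 wild-type and 512 knockout cells, and were grouped by whether a *Pcna* or a *Ccnb1* UMI remained. In 1 random thinning the 695 wild-type cells with *Pcna* only had 8932 CPM (8776 to 9091) of histone UMIs and the 173 with *Ccnb1* only 8147 CPM (7849 to 8454), a ratio of 1.10 (1.05 to 1.14). In the knockout library 324 and 160 cells had 10401 CPM (10154 to 10653) and 9881 CPM (9540 to 10232), a ratio of 1.05 (1.01 to 1.10). These intervals cover the counting of histone UMIs alone and not which cells enter a group. With another random thinning the ratios were 1.44 and 0.901, so a single thinning does not fix them. Expected over all thinnings, the ratio was 1.25 in wild-type ES cells and 1.03 in knockout ES cells.

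Expected over all thinnings, H2A in wild-type cells was at 8623 CPM with *Pcna* only, 8170 CPM with neither, 6886 CPM with *Ccnb1* only and 6878 CPM with both. In knockout cells it was at 10275 CPM with *Pcna* only, 11628 CPM with neither, 9986 CPM with *Ccnb1* only and 9070 CPM with both. The cells with neither thus stood highest in knockout ES cells, and those with *Pcna* only highest in the wild-type library. Collagen-rich cells were kept in these groups. The 41 in the wild-type library stood at 54.1 CPM of *Pcna*, 9.83 CPM of *Ccnb1* and 346.5 CPM of H2A. The other wild-type cells stood at 562.5, 190.7 and 7881 CPM in the same order. The part of collagen-rich cells in the order of the groups was not tested. The other classes had 482 CPM with *Pcna* only, 475 with neither, 400.2 with *Ccnb1* only and 413.5 with both in wild-type cells, and 202, 211, 192.5 and 187 CPM in the same order in knockout cells. In these expected values the groups with a *Ccnb1* UMI stood below those without one in both libraries. In knockout cells the differences from *Pcna* only were small, and their order was not stable. In the single thinning, knockout cells with both stood at 10347 CPM of H2A and those with *Pcna* only at 10167 CPM. Over single cells in 1 thinning the rank correlation of H2A with *Pcna* UMIs was 0.03 over 1642 wild-type and 0.00 over 1110 knockout cells, and with *Ccnb1* UMIs −0.08 and −0.05, all weak in sparse counts.

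**Figure D4:**
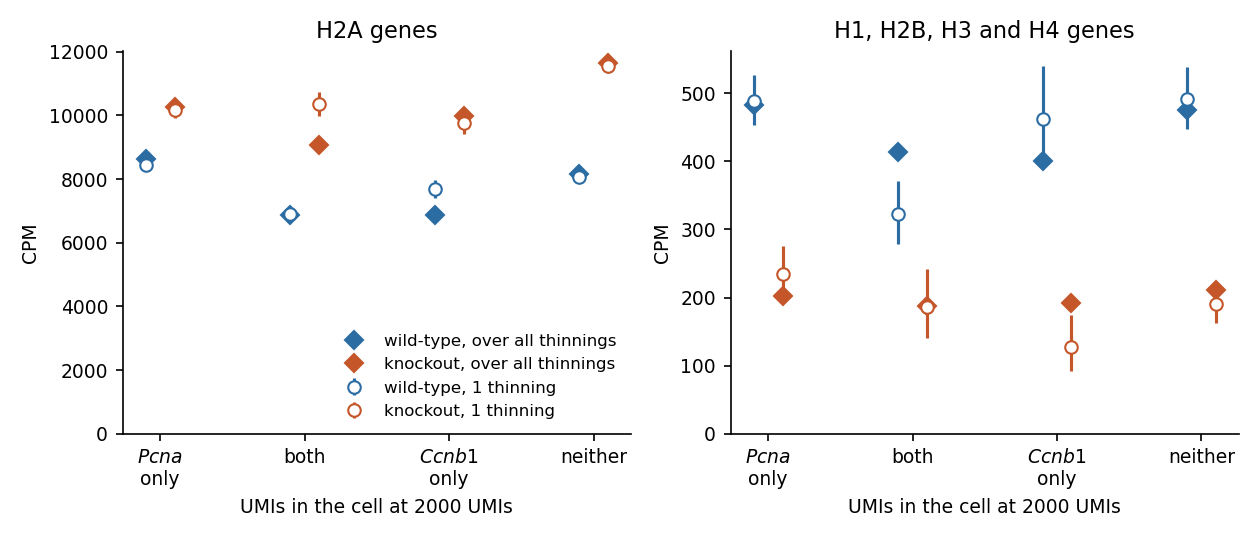
Histone CPM (vertical) in cells grouped by *Pcna* and *Ccnb1* UMIs at 2000 UMIs per cell (horizontal), for H2A genes, left, and H1, H2B, H3 and H4 genes, right. Diamonds are expected over all thinnings, and open circles are 1 random thinning with 95% Poisson intervals. In the wild-type library H2A ran from 6878 to 8623 CPM and in knockout ES cells from 9070 to 11628 CPM.

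Cells with at least 5000 UMIs, which hold the most counts each, were also ordered by their own H2A level in 6 bins. Over all cells, the median mitochondrial share was 1.48% in the lowest and 0.716% in the highest wild-type bin, and 2.04% and 0.919% in the knockout bins. Ribosomal protein genes stood at 100912 and 133626 CPM in the same wild-type bins and at 114805 and 139652 CPM in the knockout bins. Both thus moved with H2A, and their part in the values by bin was not tested. Over all cells the other classes in wild-type cells stood at 263 CPM (238 to 290.4) in 177 cells under 500 H2A CPM, which was above the 172 CPM (152 to 194) at 500 to 2000. In knockout cells these values were 107 CPM (86.8 to 130) and 92.2 CPM (76.4 to 110.3). Of the cells in the lowest bin 30 wild-type and 5 knockout cells were collagen-rich, and the values that follow leave such cells out, a choice made after their values were seen. Without them the level in wild-type cells went from 80.6 CPM (65.2 to 98.6) in 147 cells under 500 H2A CPM, over 308 CPM (279.9 to 337) in 175 cells at 2000 to 5000, to 672 CPM (639.5 to 706) in 322 cells at 10000 to 20000, and stood at 648 CPM (594 to 707) in 110 cells above that. In knockout cells they stood at 82.9 CPM (65.0 to 104) in 93 cells under 500, at 155 CPM (132 to 181) in 107 cells at 2000 to 5000, at 257 CPM (235 to 281) in 207 cells at 10000 to 20000 and at 302 CPM (271 to 336) in 129 cells above that. Under 500 H2A CPM the ratio of the other classes was 0.405 (0.322 to 0.506) over all cells and 1.03 (0.748 to 1.41) without collagen-rich cells, so whether the libraries differed there rests on those cells. The ratio of H2B in that bin turned from 0.503 (0.361 to 0.690) to 2.18 (1.28 to 3.78). That of H1 went from 0.222 (0.132 to 0.355) to 0.701 (0.305 to 1.52), and that of H3 from 0.519 (0.276 to 0.925) to 0.551 (0.273 to 1.05). At 10000 to 20000 H2A CPM the ratio was 0.383 (0.346 to 0.424). In that bin H1 stood at 281 CPM in wild-type and 109.5 CPM in knockout cells, and H3 at 300 and 89.7 CPM. In each of the 5 bins from 500 H2A CPM upward the ratio of the sum lay between 0.383 and 0.533 (0.383 and 0.536 over all cells), that of H1 between 0.342 and 0.446 and that of H3 between 0.299 and 0.470. H2B had ratios from 0.949 to 1.14 in 4 of these bins and 0.544 (0.394 to 0.744) at 10000 to 20000, and H4 ranged from 0.385 to 1.04, so the low ratio of the sum was mainly that of H1 and H3, which hold most of its UMIs.

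The same bins gave the cell cycle genes. The sum of 22 G2/M genes, led by *Top2a*, *Ube2c* and *Cks2*, stood at 4981 CPM (4868 to 5096) in wild-type cells at 500 to 2000 H2A CPM and at 2455 CPM (2347 to 2567) in those at 20000 or more, and at 4418 CPM (4304 to 4535) and 2136 CPM (2051 to 2224) in knockout cells. *Ccnb1* went from 291 CPM (261 to 323.5) in the lowest to 134 CPM (109.5 to 162) in the highest wild-type bin, and from 244 CPM (213 to 279) to 144 CPM (122 to 168) in the knockout bins. The sum of 28 S phase genes lay between 4448 and 4746 CPM in the wild-type and between 3927 and 4359 CPM in the knockout bins. Over all cells the lowest wild-type bin was lower, at 3544 CPM for the S phase sum, 3747 CPM for the G2/M sum and 225 CPM for *Ccnb1*, and each of these was then below the bin at 500 to 2000 H2A CPM (4358, 4872 and 247 CPM). *Pcna* was highest at 5000 to 10000 H2A CPM in both libraries, at 622 CPM (589 to 656) and 446 CPM (413 to 481), with 506 CPM (458 to 558) and 265 CPM (236 to 297) in the top bin.

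**Figure D5:**
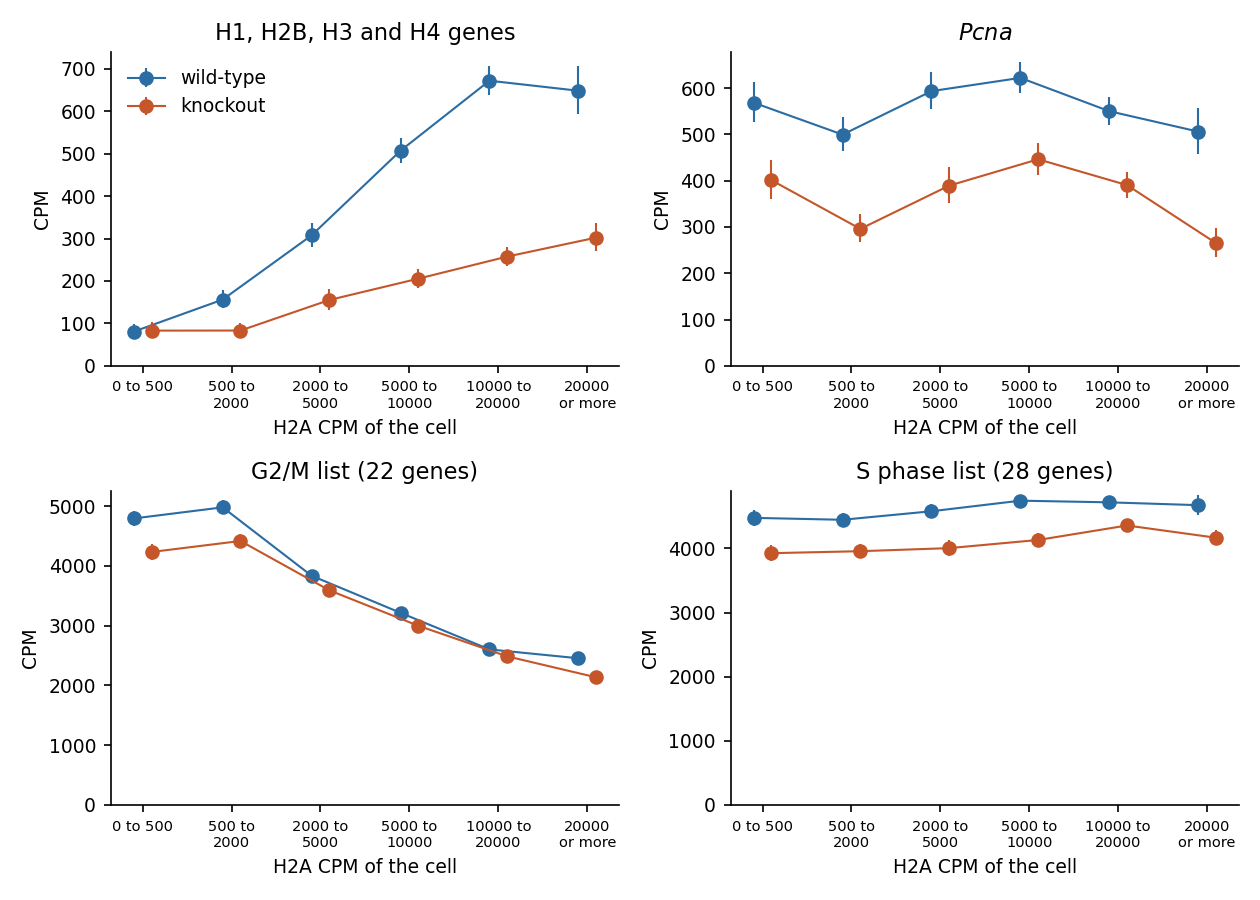
CPM of H1, H2B, H3 and H4 genes, of *Pcna*, of 22 G2/M genes and of 28 S phase genes (vertical, from 0) in bins of the H2A level of the cell (horizontal, CPM), in cells with at least 5000 UMIs without collagen-rich cells, with 95% Poisson intervals. The other classes reach 672 CPM in wild-type and 302 CPM in knockout cells, and the G2/M sum is lowest in the top bin. With collagen-rich cells kept, the lowest wild-type bin of the first panel stands at 263 CPM.

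The summed levels of the genes that make and carry histones had ratios of 0.824 (histone mRNA transcription and processing) and 0.781 (chaperones), though single genes were as low as some H1 and H3 genes. Of 17 genes for histone mRNA transcription and processing, all with enough UMIs, 0 were higher and 2 lower by 1.5-fold, with a median log2 ratio of −0.16. The 11.8% that were lower is near the 9.56% of all genes. The 2 were *Npat*, the coactivator of histone gene transcription, with 372 wild-type and 187 knockout UMIs (ratio 0.626, 0.523 to 0.749), and *Casp8ap2*, the FLASH protein of the histone locus body, with 1146 and 474 UMIs (0.515, 0.462 to 0.574). *Slbp* stood at 168 CPM (161 to 176) and 133 CPM (125 to 140.3), a ratio of 0.789 (0.735 to 0.848). The most abundant of the list were *Snrpd3*, a protein of the Sm ring (0.769), *Srrt*, a partner of the cap-binding complex (0.899), and *Slbp*.

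Of 20 histone chaperones 0 were higher and 3 lower (15%, against 9.56% of all genes), with a median log2 ratio of −0.16. *Nasp*, which holds soluble H3 and H4, stood at 677 CPM (663 to 693) in wild-type ES cells and 449 CPM (435 to 462) in knockout ES cells, a ratio of 0.662 (0.638 to 0.688). *Asf1a*, which hands H3 and H4 to the assembly factors, had 744 and 378 UMIs (0.633, 0.558 to 0.718), and *Atrx*, a remodeler that places H3.3, 3958 and 1430 UMIs (0.450, 0.424 to 0.478). *Nap1l1*, which carries H2A and H2B, and *Supt16*, a subunit of FACT, had ratios of 0.689 and 0.748. Among 11 replication-independent histones 1 was higher (9.09%, against 10.5% of all genes) and 0 lower, with a median log2 ratio of −0.02. It was the linker histone *H1fx*, with 277 wild-type and 391 knockout UMIs, 23.8 CPM (21.1 to 26.8) against 41.9 CPM (37.8 to 46.2), a ratio of 1.76. *H2afz* (H2A.Z) stood at 1200 and 985 CPM (0.821), *H3f3b* and *H3f3a* (both H3.3) at ratios of 0.876 and 0.923.

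Of the 28 S phase genes 0 were higher and 4 lower (14.3%, against 9.56% of all genes, median log2 ratio −0.14), with *Pcna* at 0.640, *Mcm2*, a subunit of the replicative helicase, at 1.22 and *Mcm7*, another, at 0.945. Of the 22 G2/M genes 0 were higher and 3 lower (13.6%, median log2 ratio −0.13), with *Top2a*, a topoisomerase, at 0.833, *Ube2c*, a ubiquitin ligase partner, at 1.19 and *Cks2*, a cyclin-dependent kinase subunit, at 0.757. Each of these medians lay closer to that of all genes, 0.05, than the −0.54 of the histone genes did. The −0.54 is not a common shift, since it joins H2A, with a median of 0.33, and H1 and H3, with medians of −1.395 and −1.34.

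Depth differed between the libraries and went with the histone level. At 5000 to 10000 UMIs per cell H2A stood at 8620 CPM (8553 to 8687) in 1042 wild-type and 11104 CPM (10996 to 11212) in 507 knockout cells. The other classes stood at 463 CPM (447 to 478) and 202 CPM (188 to 217.5) there. In cells with 10000 or more UMIs H2A was lower, at 4865 CPM in 192 wild-type and 8766 CPM in 314 knockout cells. The ratio of knockout to wild-type cells differed between depth ranges. For H2A it was 1.72 (1.53 to 1.94) at 500 to 1000 UMIs per cell, 1.51 (1.36 to 1.67) at 1000 to 2000, 1.55 (1.51 to 1.59) at 2000 to 5000, 1.29 (1.27 to 1.30) at 5000 to 10000 and 1.80 (1.76 to 1.84) at 10000 or more. It was thus above 1 in each range, and the 1.30 over all cells lies near the lowest of the 5. For the other classes it lay between 0.377 and 0.522 from 1000 UMIs up, and was 0.902 (0.488 to 1.73) at 500 to 1000, from 17 and 33 UMIs.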

How the data were processed

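The tables the authors deposited hold UMI counts, not normalized, for every gene and barcode, those with few UMIs among them, made with an earlier inDrop pipeline, and beside them the UMIs that were ambiguous between genes. The submitters' processing notes name mm10 and Seurat 2.3.4. The aligner and annotation are not given in the sources used here. Identifiers were matched without version to GENCODE M21 of GRCm38 (54079 of 54146). Barcodes were kept as cells from 500 UMIs up and to a mitochondrial share of 0.2, after the methods.

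Counts were summed over cells and given as CPM with exact Poisson intervals, shares with exact binomial (Clopper-Pearson) intervals and ratios with the exact conditional interval, all at 95%. They cover counting error only and neither cell-to-cell spread nor the spread between cultures. For 0 UMIs the limit is that of 3 UMIs. Thinning was hypergeometric with seed 1. Doublets were kept in the main values, and Scrublet (scanpy 1.11.5) marked 27 wild-type and 18 knockout cells for an alternative. The members and gene lists were chosen with earlier results of these data known. The genes named are the 20 with the most UMIs, the 2 with the most in each class, the 3 with the most in each list, and genes of the histone processing, chaperone and replication-independent lists past 1.5-fold, with *Lin28a*, *Pcna* and *Ccnb1*. *Hist1h3d*, *Hist1h1t*, *Hist2h2aa1*, *Hist2h2aa2*, *Hist1h2al*, *Hist1h2bf*, *Hist1h2bp* and *Sox2* were named after their values were seen. The stem-loop was searched in GENCODE M21 transcript sequences with stop codons from the annotation, in place of the genome sequence that had been planned, which was not used here. The calculations were checked on simulated data. The work ran in Python 3.11.15 with scipy 1.17.1, numpy 2.4.6, matplotlib 3.10.9 and pandas 2.3.3.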

Additional observations from a re-analysis of the deposited data

Results flagged for a closer look

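The H2A level of cells with *Pcna* only over that of cells with neither *Pcna* nor *Ccnb1* was 1.05 in wild-type ES cells and 0.884 in knockout ES cells, expected over all thinnings to 2000 UMIs, so the ratios lay on opposite sides of 1. Collagen-rich cells, which were low in H2A and in *Pcna*, were kept here, and their part in these ratios was not tested. For the classes other than H2A the same ratio was 1.01 in wild-type ES cells and 0.957 in knockout ES cells. With 1 library each, neither difference was tested, and the second is small in both.

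Histone UMIs were also present in barcodes under 500 UMIs, which are not counted as cells in the report. H2A stood there at 1564 CPM (680 UMIs in 2438 barcodes) in wild-type ES cells and 1698 CPM (1115 UMIs in 4302 barcodes) in knockout ES cells, and the other classes at 195.5 and 143 CPM. For H2A the levels of the libraries were close in these barcodes.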

How the results depend on the processing

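No paired analysis was possible because each genotype has 1 library. Over 11 other choices of cells, depth, doublets, scaling and ambiguous UMIs for the classes and 12 for the total, the ratios of the total and of every class stayed on the same side of 1, with ratios of 1.21 to 1.26 for the total, 1.26 to 1.31 for H2A, 0.364 to 0.389 for H1, 0.348 to 0.382 for H3, 0.732 to 0.942 for H2B, 0.630 to 0.720 for H4 and 0.428 to 0.448 for all but H2A. The total and H2A left their counting intervals without a minimum of UMIs (1.22 and 1.27), without collagen-rich cells (1.23 and 1.27), with median of ratios scaling, which lowers every ratio by a factor of 1.03 (1.21 and 1.26), and without UMIs counted as ambiguous over all barcodes (1.22 and 1.26), and H2A in cells of 5000 to 10000 UMIs (1.29). H2B was 0.942 without collagen-rich cells, with an interval that reached past 1, so its direction was not set there. The ratio of H4 without *Hist1h4d* was not taken. The range of 5000 to 10000 UMIs, the removal of ambiguous UMIs, all thinnings and the single depth ranges, over which H2A ran from 1.29 to 1.80, were chosen after seeing the data. *Hist1h1c* was 0.517 without collagen-rich cells. Members counted as higher were 0 without cells of 10000 or more UMIs, 0 in cells of 5000 to 10000 UMIs, 3 of 57 with at least 20 UMIs (14% of all genes there) and 0 of 25 with at least 200 (6.5% of all genes), and 12 of 25 were lower with at least 200 (8.5% of all genes). *Hist1h2bc* reversed to 1.45 without collagen-rich cells, 1.11 without cells of 10000 or more UMIs and 1.05 in cells of 5000 to 10000, and *Hist1h4i* went to 1.40 without cells of 10000 or more UMIs. The share of cells with a histone UMI had a ratio of 1.01 at 500 UMIs and 0.971 without thinning.

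Of *Pcna*-only over *Ccnb1*-only cells, the wild-type ratio of 1.10 became 1.24 at 1000 UMIs, 1.21 at 5000, 1.20 in cells of 5000 to 10000 UMIs without thinning, 1.44 with seed 2, 1.27 without Scrublet-marked cells, 1.34 without collagen-rich cells, 1.37 without *Hist1h2ap* and 1.25 over all thinnings. The knockout ratio of 1.05 became 0.928, 0.988, 0.920 and 0.901 under the first 4 of these and lay on either side of 1. Leaving cells out also changes the random draw, and its part was not tested.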
